A study of Mus musculus with 6 samples.

Results

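The inflammasome and pyroptosis genes described here are 10 genes found by symbol in a table of 25664 genes: Nlrp3, Nlrc4, Aim2, Pycard, Casp1, Casp4, Gsdmd, Ninj1, Il1b and Il18. They were read in RNA-seq libraries of mouse alveolar macrophages, which live on the air side of the lung, clear inhaled particles and surfactant, and were sorted here from lavage fluid. The genotypes are Vav1cre/+ Pex5fl/fl, called Pex5-deficient (3 libraries), and Pex5fl/fl, called control (3 libraries). Both groups carry the floxed Pex5 alleles, and the Cre allele sets them apart. Vav1-Cre works in the whole blood lineage, so the deletion is not limited to macrophages. PEX5 is the receptor that carries most enzymes into the peroxisome. The labels used here give no age, sex or number of mice per library.

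An inflammasome is a protein platform that a sensor of infection or damage builds in the cytosol. Through the adaptor ASC, encoded by Pycard, it activates caspase-1, which cuts pro-IL-1beta and pro-IL-18 into active cytokines and cuts gasdermin D into a pore. Caspase-11, the product of mouse Casp4, binds bacterial lipopolysaccharide in the cytosol and also cuts gasdermin D, and NINJ1 then breaks the plasma membrane of the dying cell. Most of these steps run by cleavage and assembly of proteins, which read counts do not show. Alveolar macrophages are known to be a resting source of pro-IL-18, while Il1b transcript is made mainly after a microbial stimulus.

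Total counts were 13325609 to 19413838 in Pex5-deficient libraries and 14226108 to 18987200 in control libraries. Pex5-deficient replicate 2 stood apart, with 30.4% of its counts in the 50 most abundant genes against 38.3% to 42.1% in the other libraries, a scaling factor of 1.34, and 26 reads of Hba-a1, 51 of Hbb-bs and 11 of Alas2, red cell genes with at most 1 read each in any other library. Pex5 itself measured 31.4, 36.3 and 29.6 CPM in Pex5-deficient replicates 1 to 3, against 33.0, 32.1 and 29.7 CPM in control replicates 1 to 3. The log2 fold change of Pex5 was 0.04 ± 0.11 (SE, adjusted p = 0.891 by edgeR's quasi-likelihood test). The count covers the whole gene and does not show which exons gave the reads, so it does not check the labels. Why the Pex5 count did not differ was not tested. The alveolar macrophage markers Chil3, Plet1, Car4, Marco, Itgax and Pparg were present in every library and did not pass the test. Of 12 such markers 3 fell and 1 rose, where edgeR called 1.51% of all genes lower and 1.74% higher. Fold changes of 9 of the 12 were below 1, and the median log2 fold change was -0.45. At an unadjusted p under 0.05 by edgeR there were 7 of the 12, beside 18.9% of all genes. Groups did not overlap as lower for 5 of the 12, Itgax and Ear2 among them, and for 1440 of the 11011 genes tested. Siglecf fell to 219 ± 39.0 CPM in Pex5-deficient libraries, against 651 ± 28.6 CPM in control libraries (SD, n = 3 each, adjusted p = 0.00334 by edgeR). Krt79 (log2 fold change -1.44, adjusted p = 0.0233) and Ear1 (-2.52, adjusted p = 0.0307) fell and Fabp4 (1.46, adjusted p = 0.0482) rose. Levels are reads per 1000000 reads of the library (CPM) on library sizes scaled by edgeR's TMM factors, a trimmed mean of log ratios, and fold changes are Pex5-deficient over control.

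None of the 10 genes passed the test between genotypes. Gsdmd, Nlrc4, Il1b, Aim2 and Casp1 had fold changes of 1.01 to 1.09, and Nlrp3 one of 1.17. Ninj1, Casp4 and Pycard stood higher in every Pex5-deficient library than in every control library, by fitted folds of 1.81, 1.43 and 1.29, without passing the adjusted threshold. Il18, by far the most abundant of the 10, had a fold of 0.699 with wide and overlapping groups. All 10 genes passed the low-count filter, and the test was edgeR's quasi-likelihood F test with Benjamini-Hochberg adjustment over the 11011 genes tested and a threshold of 0.05. It called 3.25% of all genes and 0 of the 10. DESeq2 called Ninj1 and 755 of the 11011 genes tested, and limma-voom called 0 of the 10 and 324 of all. At an unadjusted p under 0.05 there were 3 of the 10, all higher, where 18.9% of all genes passed that limit in either direction and 9.70% passed it as higher. The same 3 were those whose libraries did not overlap as higher, against 13.0% of all genes. The median log2 fold change of the 10 was 0.12, beside -0.00077 over all genes tested. 9 of the 10 fold changes were above 0, and 5495 of the 11011 genes tested were. For 8 of the 10 genes the 95% interval of the fold change lay within a 2-fold change either way, as it did for 80.8% of all genes. The exceptions were Ninj1 at the upper end and Il18 at the lower. In RNA from a sorted pool, fewer cells that make a transcript and less transcript per cell cannot be told apart.

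**Figure D1:**
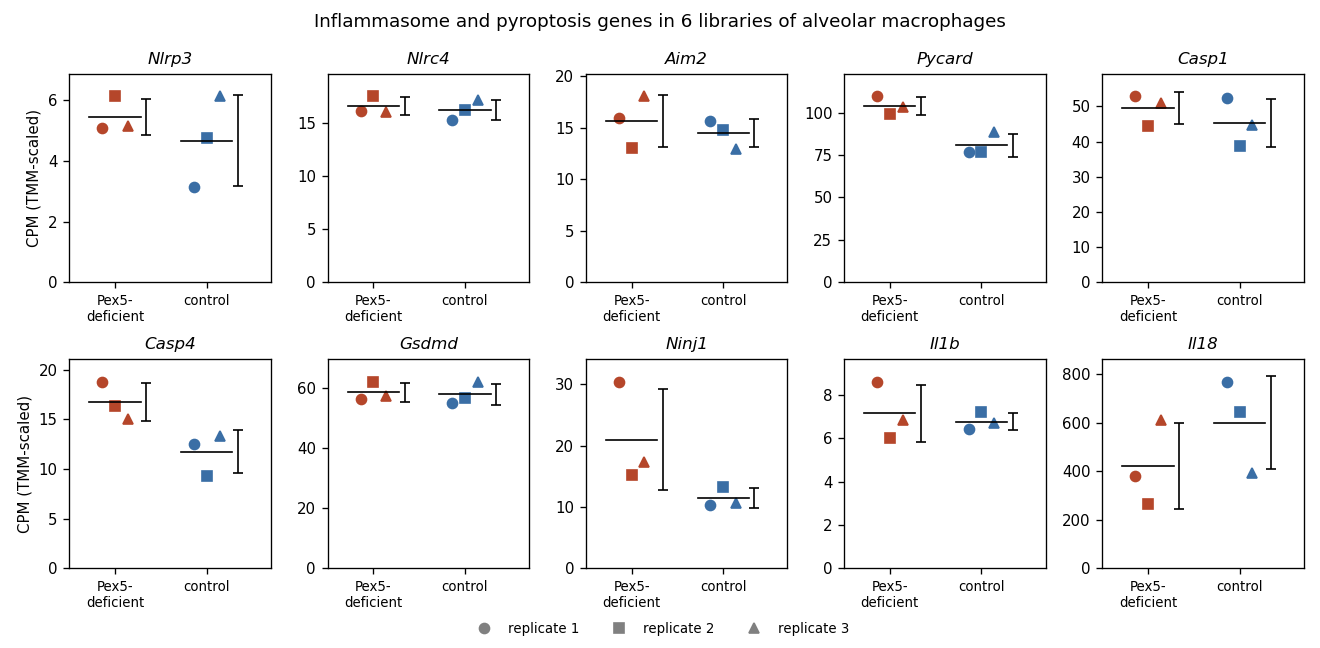
CPM on TMM-scaled library sizes (vertical axis, from 0) of each of the 10 genes in the 3 Pex5-deficient and 3 control libraries; symbols mark replicates, the line is the group mean and the bar beside it 1 SD. In the panels of Pycard, Casp4 and Ninj1 the lowest Pex5-deficient library lies above the highest control library, and in the other 7 panels the groups overlap.

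**Figure D2:**
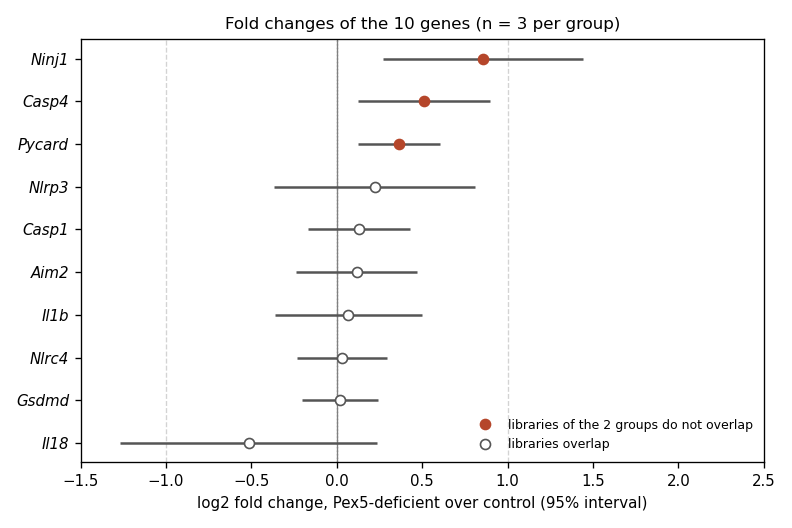
Log2 fold change, Pex5-deficient over control, of the 10 genes with 95% intervals (n = 3 per group); dashed lines mark a 2-fold change and the dotted line the median of all genes tested. Filled points are genes whose libraries do not overlap; intervals of Pycard, Casp4 and Ninj1 exclude 0, yet none of the 10 passed the adjusted threshold.

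The sensors decide which signal starts an inflammasome. Nlrp3, on chromosome 11 from 59541568 to 59566956 (GRCm38), responds to potassium efflux and other signs of membrane or organelle damage. It had 5.08, 6.13 and 5.14 CPM in Pex5-deficient replicates 1 to 3, against 3.13, 4.75 and 6.14 CPM in control replicates 1 to 3. The highest control library lay at the level of the highest Pex5-deficient one, and control replicate 1 was the lowest of the 6, on 40 reads. The log2 fold change was 0.22 ± 0.26 (SE, adjusted p = 0.695), and the 95% interval of the fold, 0.776 to 1.75, is among the wider ones of the 10. Nlrc4, on chromosome 17 from 74425438 to 74459142, is the platform that NAIP proteins engage after they bind flagellin or bacterial secretion needles. It varied least, with 16.2, 17.6 and 16.1 CPM in Pex5-deficient replicates 1 to 3 and 15.3, 16.2 and 17.2 CPM in control replicates 1 to 3. The groups lay on top of each other, with a fold of 1.02 and a 95% interval from 0.851 to 1.23. Aim2, on chromosome 1 from 173350879 to 173466040, binds double-stranded DNA in the cytosol. It had 16.0, 13.1 and 18.1 CPM in Pex5-deficient replicates 1 to 3, against 15.6, 14.8 and 13.0 CPM in control replicates 1 to 3. The highest and nearly the lowest of the 6 libraries were both Pex5-deficient, and the fold was 1.08 (95% interval 0.849 to 1.39, adjusted p = 0.736).

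The adaptor and the caspases pass the signal on. Pycard, on chromosome 7 from 127989708 to 127993867, encodes ASC, which polymerises into the speck on which caspase-1 is activated. It had 110, 98.9 and 103 CPM in Pex5-deficient replicates 1 to 3, against 76.9, 76.8 and 88.5 CPM in control replicates 1 to 3. Every Pex5-deficient library lay above every control library, and the log2 fold change was 0.36 ± 0.10 (SE, unadjusted p = 0.00734, adjusted p = 0.104). Exons of Gm45205 lie on the opposite strand of Pycard. Of the 100-base words of Pycard 10.4% occur in other genes, with no other gene holding more than Gm45205. Gm45205 had 693, 1181 and 894 reads in Pex5-deficient replicates 1 to 3 and 482, 645 and 616 reads in control replicates 1 to 3. The sources used here do not state whether the counting used strand, so the level of Pycard is uncertain. Casp1, on chromosome 9 from 5298517 to 5307265, is the caspase of the classical platform. It had 53.0, 44.4 and 51.1 CPM in Pex5-deficient replicates 1 to 3, against 52.3, 38.7 and 44.7 CPM in control replicates 1 to 3. The groups overlapped over most of their range, with a fold of 1.09 (95% interval 0.889 to 1.35, adjusted p = 0.646). Casp4 follows Casp1 on the same strand after 1562 bases, from 5308828 to 5336783, and no 100-base word of either was found in another gene. It had 18.8, 16.3 and 15.0 CPM in Pex5-deficient replicates 1 to 3, against 12.5, 9.28 and 13.4 CPM in control replicates 1 to 3. The groups did not overlap, although the nearest libraries lay closer together than the SD of either group (1.90 CPM in Pex5-deficient and 2.16 CPM in control libraries). The log2 fold change of Casp4 was 0.51 ± 0.17 (SE, unadjusted p = 0.015, adjusted p = 0.149).

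The pore and the rupture of the membrane are the last steps. Gsdmd, on chromosome 15 from 75862327 to 75867408, encodes gasdermin D, whose freed N-terminal part forms the pore. It had 56.3, 62.1 and 57.3 CPM in Pex5-deficient replicates 1 to 3, against 55.1, 56.5 and 62.0 CPM in control replicates 1 to 3. The groups spanned nearly the same range, and the fold of 1.01 had the narrowest interval of the 10, from 0.868 to 1.18. Ninj1, on chromosome 13 from 49187485 to 49196244, encodes the small membrane protein that assembles into filaments and tears the plasma membrane after the pore has formed. It had 30.4, 15.2 and 17.3 CPM in Pex5-deficient replicates 1 to 3, against 10.4, 13.3 and 10.7 CPM in control replicates 1 to 3. All Pex5-deficient libraries lay above all control libraries, and replicate 1 stood far above the other two. The log2 fold change was 0.86 ± 0.26 (SE, unadjusted p = 0.00932, adjusted p = 0.117), and 0.50 without Pex5-deficient replicate 1 (adjusted p = 0.245). DESeq2 gave Ninj1 an adjusted p of 0.0324, and edgeR with scaling by library size alone gave 0.0297. Over the other alternatives the adjusted p of Ninj1 lay between 0.0523 (Pex5-deficient replicate 2 left out) and 0.316 (control replicate 1 left out).

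The sequences before the start sites of the 3 genes whose libraries did not overlap are shown so that they can be set beside each other. Each is the 250 bases upstream of the RefSeq start on GRCm38.p6, read in the direction of the gene: chr7:127993868-127994117 on the minus strand for Pycard, chr9:5308599-5308848 on the plus strand for Casp4 and chr13:49187279-49187528 on the plus strand for Ninj1. Capitals mark matches, on either strand, to the kB motif of NF-kB factors, the GAS motif TTCNNNGAA, the AP-1 motif TGANTCA, the PU box GAGGAA and the GC box GGGCGG.
Pycard: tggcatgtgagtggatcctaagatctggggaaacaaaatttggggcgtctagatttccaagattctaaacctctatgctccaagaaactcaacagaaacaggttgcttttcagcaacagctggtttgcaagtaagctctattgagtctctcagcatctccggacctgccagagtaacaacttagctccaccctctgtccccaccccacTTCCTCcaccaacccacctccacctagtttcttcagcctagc
Casp4: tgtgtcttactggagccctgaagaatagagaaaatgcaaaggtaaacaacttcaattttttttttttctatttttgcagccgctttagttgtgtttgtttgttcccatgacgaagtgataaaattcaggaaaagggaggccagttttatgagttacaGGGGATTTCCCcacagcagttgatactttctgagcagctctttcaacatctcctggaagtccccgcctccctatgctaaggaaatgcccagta
Ninj1: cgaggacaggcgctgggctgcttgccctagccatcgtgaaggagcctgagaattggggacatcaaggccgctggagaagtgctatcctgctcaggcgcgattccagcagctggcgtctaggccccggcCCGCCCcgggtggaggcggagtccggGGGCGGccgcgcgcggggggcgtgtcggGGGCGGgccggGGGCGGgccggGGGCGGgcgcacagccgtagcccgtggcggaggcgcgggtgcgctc
The 3 share none of the 5 motifs among them. Casp4 holds 2 overlapping matches to the kB motif, which 3.74% of 27025 promoter windows of this length hold. Ninj1 holds 5 GC boxes and 76.0% G and C, where 33.0% of windows hold a GC box and the median content is 52.0%. Pycard holds 1 PU box, as 23.1% of windows do. Of the 9 members with a promoter in the table (all but Gsdmd), Nlrp3 also held a kB motif, Aim2 and Casp1 a PU box and Aim2 a GC box, and 0 held the GAS motif (7.14% of windows) or the AP-1 motif (6.85%). Windows of Nlrc4, Il1b and Il18 held none of the 5. RefSeq starts differ from the gene coordinates printed above for some genes. Windows of Casp4, Ninj1 and Nlrc4 run past the printed starts, and that of Aim2 (chr1:173420354-173420603) lies within the printed gene. No match to 1 motif overlapped a match to another. A match is a description of letters and not a bound site.

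The 2 cytokines differed in level and in spread. Il1b, on chromosome 2 from 129364570 to 129371139, encodes the precursor of the fever-inducing cytokine IL-1beta. It had 8.60, 6.01 and 6.84 CPM in Pex5-deficient replicates 1 to 3, against 6.41, 7.21 and 6.68 CPM in control replicates 1 to 3. The control libraries lay inside the range of the Pex5-deficient ones, on 82 to 143 reads per library, and the fold was 1.05 (95% interval 0.777 to 1.41, adjusted p = 0.888). Exons of Il1bos lie on the opposite strand, so the low level of Il1b is uncertain in part. Il18, on chromosome 9 from 50554827 to 50581840, encodes the precursor of the cytokine that drives interferon-gamma in lymphocytes. It had 382, 265 and 613 CPM in Pex5-deficient replicates 1 to 3, against 768, 642 and 391 CPM in control replicates 1 to 3. Pex5-deficient replicate 3 lay close to control replicate 2, and control replicate 3 close to Pex5-deficient replicate 1, so that the groups overlapped. The log2 fold change of Il18 was -0.52 ± 0.33 (SE, adjusted p = 0.44), with a 95% interval of the fold from 0.415 to 1.18. Its spread within groups, 0.56 on the log2 scale, was larger than that of 93.8% of all genes tested. Nlrc4 at 0.08 and Gsdmd at 0.08 stood at the other end, on percentiles 6.68 and 7.96. Il18 alone held 48.6% to 67.9% of the reads of the 10 genes in Pex5-deficient libraries and 59.9% to 75.6% in control libraries.

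Levels of different genes were compared per kilobase of exon. In Pex5-deficient libraries Il18 averaged 407 ± 172 CPM per kb (SD, n = 3), followed by Casp1 at 33.1 ± 3.0, Pycard at 27.4 ± 1.44, Gsdmd at 24.6 ± 1.29 and Ninj1 at 13.4 ± 5.26 CPM per kb. Casp4 at 4.51 ± 0.511, Aim2 at 4.49 ± 0.719, Il1b at 3.75 ± 0.695 and Nlrc4 at 3.45 ± 0.174 CPM per kb formed a group in which each neighbour overlapped the next, and Nlrp3 was lowest at 1.34 ± 0.145. In control libraries Il18 averaged 583 ± 186 CPM per kb, Casp1 30.2 ± 4.56, Gsdmd 24.4 ± 1.52, Pycard 21.3 ± 1.77 and Ninj1 7.29 ± 1.01 CPM per kb. Aim2 at 4.13 ± 0.391, Il1b at 3.55 ± 0.214, Nlrc4 at 3.38 ± 0.196 and Casp4 at 3.16 ± 0.582 CPM per kb overlapped from neighbour to neighbour in control libraries, and Nlrp3 was again lowest at 1.15 ± 0.372. The order was therefore the same for Il18, Casp1, Ninj1 and Nlrp3 in both groups, while Casp4 stood at place 6 in Pex5-deficient and place 9 in control libraries. Among 10891 tested genes with a length, the mean level per kb over all libraries put Il18 at percentile 99.1, Casp1 at 88.1, Gsdmd at 85.4 and Pycard at 85.3, and Nlrp3 at 25.8. Pycard and Gsdmd overlapped in both groups, and Casp1 and Gsdmd in control libraries, so their order was not separated by the libraries. The sensors stood well below the adaptor, the caspase-1 gene and the pore gene in both genotypes.

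**Figure D3:**
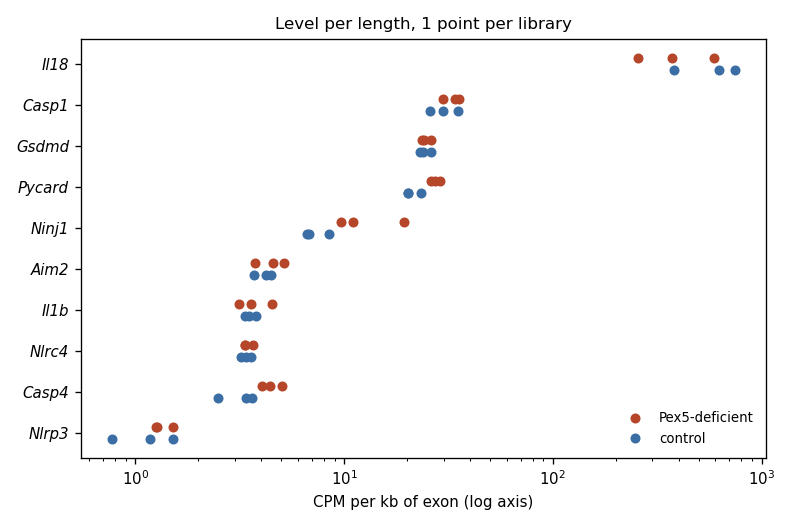
CPM per kb of exon (log axis) of the 10 genes, 1 point per library, with Pex5-deficient points above control points in each row. Il18 lies between 257 and 745 CPM per kb, Nlrp3 between 0.771 and 1.51, and the sensors lie left of Casp1, Gsdmd and Pycard.

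Among 10 further sensors, 7 were tested and edgeR called 0, where it called 3.25% of all genes. Naip1 and Nlrp1a were under an unadjusted p of 0.05, as 18.9% of all genes were. DESeq2 called 1, Naip1, where it called 755 of the 11011 genes tested. Naip1, which in mice senses the bacterial secretion needle for NLRC4, was at a low level of 3.91, 1.68 and 2.09 CPM in Pex5-deficient replicates 1 to 3, against 0.704, 0.859 and 0.608 CPM in control replicates 1 to 3. The groups did not overlap, and the log2 fold change was 1.77 ± 0.41 (SE, adjusted p = 0.0551). The value is uncertain, since 13.6% of the 100-base words of Naip1 occur in other genes, with no other gene holding more than Naip3. Nlrp1a, a sensor of the NLRP1 family, had 1.40 ± 0.0924 CPM in Pex5-deficient and 2.63 ± 0.553 CPM in control libraries (SD, n = 3 each, log2 fold change -0.90 ± 0.27, adjusted p = 0.119). Naip5, the flagellin receptor, had -0.21 ± 0.14 and shares 16.2% of its words with other genes. Nlrp6, Nlrp12 and Mefv were listed at 0 in all 6 libraries.

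Of 10 cofactors of activation, 9 were tested, 1 fell and 0 rose, where 1.51% of all genes were called lower. Txnip, an inhibitor of thioredoxin that responds to glucose and has been reported to bind NLRP3, fell to 318, 497 and 701 CPM in Pex5-deficient replicates 1 to 3, against 1768, 1615 and 1218 CPM in control replicates 1 to 3. The groups did not overlap, and the log2 fold change was -1.60 ± 0.29 (SE, adjusted p = 0.0261). Exons of Gm15441 lie on the opposite strand. Of the words of Txnip 15.1% occur in other genes, with no other gene holding more than Gm15441. Leaving out Pex5-deficient replicate 1 gave Txnip an adjusted p of 0.0793, and leaving out control replicate 1, 2 or 3 gave 0.114, 0.0849 or 0.0524, at log2 fold changes from -1.91 to -1.36 over all libraries left out. Gbp7 (-0.36 ± 0.12, adjusted p = 0.152) and Gbp2 (-0.37 ± 0.14, adjusted p = 0.215), guanylate-binding proteins that open vacuoles and coat bacteria for caspase-11, did not pass. Their unadjusted p by edgeR were 0.0156 and 0.0315. With Txnip they were the 3 of the 9 whose groups did not overlap as lower, as was so for 1440 of the 11011 genes tested. Gbp7 shares 10.2% of its words with other genes, with no other gene holding more than the overlapping Gm43802. P2rx7, the ATP receptor that starts the potassium efflux, differed by 0.02 ± 0.13 on the log2 scale, and the NLRP3 partner Nek7 by -0.02 ± 0.12.

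Of 10 inhibitors, 6 were tested, 1 rose and 0 fell, where 1.74% of all genes were called higher. Nlrc3, a NOD-like protein that restrains inflammatory signalling, rose to 2.19, 2.18 and 2.54 CPM in Pex5-deficient replicates 1 to 3, against 0.391, 0.687 and 0.203 CPM in control replicates 1 to 3. The groups did not overlap, but the level is low, at percentile 2.99 per kb, and the control libraries held only 5, 12 and 3 reads. The log2 fold change was 2.38 ± 0.40 (SE, adjusted p = 0.0199), and the adjusted p became 0.0657 when Pex5-deficient replicate 1 was left out, 0.0998 for control replicate 1 and 0.0618 for control replicate 3. Il1rn, the secreted antagonist of the IL-1 receptor, had 238, 167 and 241 CPM in Pex5-deficient replicates 1 to 3, against 366, 346 and 346 CPM in control replicates 1 to 3. The groups did not overlap, and with a log2 fold change of -0.71 ± 0.16 (SE) the adjusted p was 0.0519. That p fell below the threshold with library size only (0.0361), with no low-count filter (0.0303), when Pex5-deficient replicate 2 was left out (0.0266) and in DESeq2 (0.00175), and lay between 0.0556 and 0.182 in the others. Il18bp, the soluble trap of IL-18, had 0.53 ± 0.31 (adjusted p = 0.386) and overlaps exons of Numa1 on the other strand. Il1r2 had 1 read in all, Casp12 was listed at 0, and Pydc3 and Pydc4 were not analysed here.

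The other 5 lists had 46 tested genes, of which edgeR called 0 and DESeq2 0. Of all 11011 genes tested edgeR called 3.25% and DESeq2 called 755. At an unadjusted p under 0.05 there were 4 of the 46, beside 18.9% of all genes. Among 8 executioners and membrane repair factors, all tested, the repair ATPase Vps4b (-0.26 ± 0.16) and Gsdme (-0.67 ± 0.42), a gasdermin cut by caspase-3, had adjusted p of 0.42 and 0.426. Among 8 related cytokines and receptors, 5 were tested, and Il18rap (1.27 ± 0.40, adjusted p = 0.128), Il1r1 (-1.10 ± 0.44, adjusted p = 0.228) and Il1a (0.54 ± 0.25, adjusted p = 0.288) came first. Il18rap and Il1r1, subunits of the IL-18 and IL-1 receptors, were near the limit of detection, with means of 1.47 and 0.599 CPM in Pex5-deficient and 0.619 and 1.24 CPM in control libraries. Il1a, an alarmin that needs no inflammasome to be active, had 40.7, 22.5 and 42.8 CPM in Pex5-deficient replicates 1 to 3, against 22.2, 30.2 and 20.1 CPM in control replicates 1 to 3. Its groups overlapped through Pex5-deficient replicate 2, without which it was called (log2 fold change 0.80, adjusted p = 0.0477). Of the words of Il1a 6.72% occur in other genes, with no other gene holding more than Gm14023 on the opposite strand.

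The 16 genes of priming, the step in which Toll-like receptors and NF-kB raise Nlrp3 and Il1b, were all tested and had a median log2 fold change of -0.09. The lipopolysaccharide co-receptor Cd14 had -0.38 ± 0.15 (SE, adjusted p = 0.219), the NF-kB inhibitor Tnfaip3 -0.40 ± 0.19 (adjusted p = 0.291) and the kinase Irak1 0.20 ± 0.16 (adjusted p = 0.548). Cd14 (unadjusted p = 0.0324 by edgeR) was the 1 of the 16 whose groups did not overlap as lower, as was so for 1440 of the 11011 genes tested. Of 14 interferon response genes, which include inducers of Casp4 and the Gbp genes, 13 were tested with a median of -0.18. Oas1a (0.36 ± 0.20) and Irf7 (-0.51 ± 0.29) had adjusted p of 0.362 and 0.386. Oas1a shares 40.9% of its words with other genes and is uncertain. Of 4 necroptosis genes, the kinase genes Ripk1 (0.50 ± 0.15, adjusted p = 0.122) and Ripk3 (0.35 ± 0.20, adjusted p = 0.40) and the sensor Zbp1 (0.12 ± 0.16, adjusted p = 0.75) had the smallest p. Exons of Serpinb6a lie on the opposite strand of Ripk1, and those of Gm17084 overlap it on the same strand. Of the words of Ripk1 6.46% occur in other genes, with no other gene holding more than Gm17084. Serpinb6a had 3327, 4436 and 4813 reads in Pex5-deficient replicates 1 to 3 and 1952, 2735 and 2243 reads in control replicates 1 to 3. The level of Ripk1 is therefore uncertain. The level of Irf7 is uncertain too, since exons of the more highly counted Phrf1 lie opposite it. Over all 8 lists 68 of 80 genes were tested, 1 rose and 1 fell, where edgeR called 1.74% of all genes higher and 1.51% lower. The median log2 fold change of the 68 was -0.10.

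**Figure D4:**
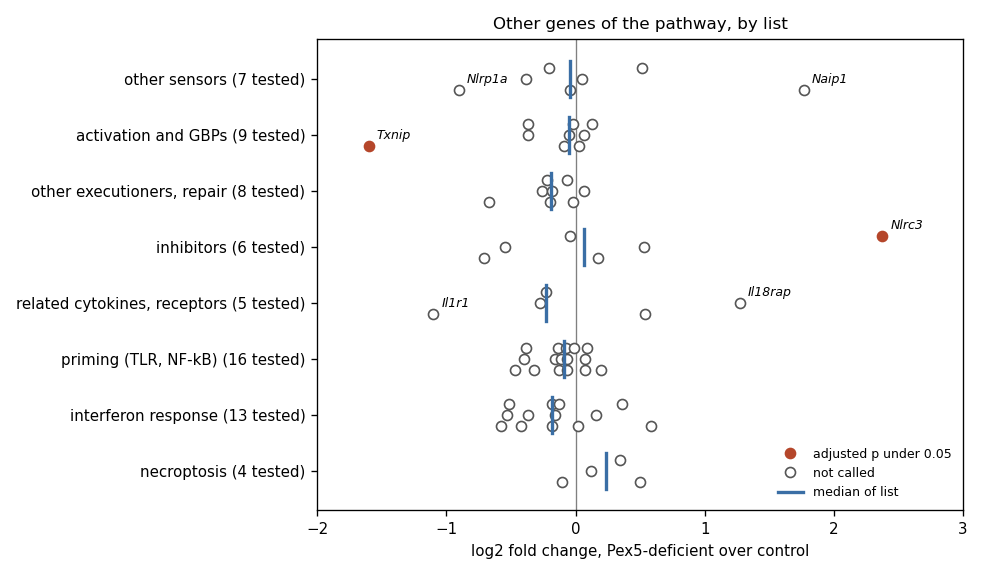
Log2 fold change, Pex5-deficient over control, of the 68 tested genes of the 8 other lists, 1 point per gene; filled points passed the adjusted threshold and blue bars are the list medians. Txnip at -1.60 and Nlrc3 at 2.38 are the 2 filled points, and the list medians lie between -0.23 and 0.23.

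Markers of other cells were read beside these genes, since neutrophils and monocytes are strong sources of Il1b and Nlrp3. Of 12 neutrophil genes, 8 were at 0 in every library, among them S100a9, Ly6g, Retnlg and Mpo, and the sum of the list was 125 to 188 CPM in Pex5-deficient and 84.3 to 98.6 CPM in control libraries. S100a8 had 83 to 722 reads per library, and 10388 of the 25664 genes were at 0 in every library. Whether such zeros reflect the cells or how the counts were made was not tested. Cxcr2 (27.8 ± 4.75 CPM in Pex5-deficient against 6.09 ± 2.53 CPM in control libraries), S100a8 (27.9 ± 12.8 against 6.66 ± 1.65 CPM) and Mmp8 (69.3 ± 34.8 against 36.9 ± 1.72 CPM) were higher, but Mmp8 did not pass (adjusted p = 0.156) and its nearest libraries were level at 38.8 CPM. Cxcr2 and S100a8 rose (adjusted p = 0.00808 and 0.0203). Csf3r, the last of the 4 tested, lay the other way with 28.1 ± 9.44 CPM in Pex5-deficient and 40.5 ± 7.84 CPM in control libraries (log2 fold change -0.52 ± 0.24, adjusted p = 0.279). The monocyte list summed to 68.6 to 164 CPM in Pex5-deficient and 292 to 398 CPM in control libraries, nearly all of it Fn1. Plac8 was at 0 and Ly6c2 at no more than 1 read in any library. Of the 2 genes tested, Fn1 fell (log2 fold change -1.67 ± 0.30, adjusted p = 0.0236), where edgeR called 1.51% of all genes lower. Ccr2 did not pass (-0.38 ± 0.29, adjusted p = 0.524). Eosinophil markers were at 0, and the lists of dendritic, T, B and NK cells and of epithelium summed to at most 3.21 CPM in any library. Il1b, which neutrophils also make, averaged 7.15 ± 1.33 CPM in Pex5-deficient and 6.77 ± 0.407 CPM in control libraries (SD, n = 3 each). The part of other cells in the levels of Ninj1, Casp4 and Pycard was not tested.

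The genes whose pattern over the 6 libraries was most like that of Il1b were Alg8, an enzyme of N-glycan assembly, Ncf4, a subunit of the phagocyte NADPH oxidase, and Dtwd1, a tRNA-modifying enzyme. Likeness was the root mean square distance of centred log2 CPM, which was 0.0418, 0.0429 and 0.0449 on the log2 scale. Ncf4 had 72.0, 50.7 and 60.0 CPM in Pex5-deficient replicates 1 to 3, against 52.0, 57.9 and 56.8 CPM in control replicates 1 to 3, the same order of high and low libraries within the Pex5-deficient group as Il1b. Their log2 fold changes were 0.03 ± 0.14 for Alg8, 0.13 ± 0.14 for Ncf4 and 0.02 ± 0.19 for Dtwd1, with adjusted p of 0.94, 0.655 and 0.964. These genes were picked for likeness over the same 6 libraries. The shared order and fold changes near that of Il1b follow from that choice.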

How the data were processed

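Total RNA from 50000 sorted alveolar macrophages per sample was made into libraries with a stranded SMART-Seq kit and read as single-end reads of 100 bases, per the labels' protocols. The values used are the raw gene counts that the authors deposited, 1 column per library. The submitters' processing notes name STAR, featureCounts, DESeq2 1.40.1 and R 4.3.2, with GRCm38.p5 and mm10 as builds, and state no order, annotation or strand setting. No molecular identifiers are named, so counts are of reads.

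Genes were filtered with filterByExpr (minimum count 10, minimum total 15) and tested with edgeR 4.0.16 in R 4.3.3 on TMM-scaled libraries, 3 against 3, without a block. Standard errors and 95% intervals were derived from the F statistics. Whether the samples are separate mice is not stated, so p-values cover only the spread among these 6 samples and that spread may be technical. No 2 libraries of the same group held near-identical counts, and pairs across the groups were not compared. Alternatives were DESeq2 1.42.0, limma-voom 3.58.1, RLE factors, library size only, other filters, the block and each library left out. Named were the 10 members and, in each other list, every called gene and the 3 with the smallest p, some of which, like the interstitial macrophage markers, are not reported here. P2rx7 and Nek7, marker genes, genes listed at or near 0 and Numa1 were named outside that rule. The members and lists were chosen with earlier results of these data known. Coordinates, exon lengths and shared 100-base words (both strands) are from GENCODE M21 on GRCm38, and promoters are from RefSeq (GRCm38.p6). The steps were tested on simulated data.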

Additional observations from a re-analysis of the deposited data

How the results depend on the processing

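The count of called genes was 755 with DESeq2, 83 with the replicate number as a block and 76 to 523 with 1 library left out, against 358. Same-numbered libraries did not deviate together (correlations of deviations from the group means of -0.21, -0.06 and -0.41). No library correlated best with its own number, so the numbers were not taken to pair them. The highest correlation, 0.40, was between Pex5-deficient replicate 3 and control replicate 1, and its source was not tested. Of the 10 inflammasome genes 1, Ninj1, was called with DESeq2 and 1, again Ninj1, with library size only, and 0 under the other 11 alternatives, the block included. Of the other pathway genes 4 were called with DESeq2, with library size only and without a low-count filter (Il1rn, Naip1, Nlrc3 and Txnip each time), 1 (Txnip) at a mean of at least 5 CPM, where Nlrc3 is not tested, 0 with the block, and 0 to 5 with 1 library left out. Library size only shifted the median of all genes by 0.17 on the log2 scale, and the median of the 10 inflammasome genes was then 0.27. Leaving out libraries turned the sign of log2 fold changes near 0, with ranges of -0.0085 to 0.093 for Nlrc4, -0.00089 to 0.25 for Aim2, -0.017 to 0.088 for Gsdmd, -0.080 to 0.19 for Il1b, -0.080 to 0.15 for Alg8, -0.0068 to 0.26 for Ncf4, -0.11 to 0.16 for Dtwd1 and -0.039 to 0.10 for Pex5. Limma-voom gave -0.0053 for Alg8 and -0.024 for Dtwd1. Pycard, Casp1, Casp4, Ninj1 and Nlrp3 stayed above 0 and Il18 below 0 under all 13 alternatives, but single libraries moved several of these values by over 1.5 times. Nlrp3 ranged from 0.0085 without control replicate 1 to 0.48 without control replicate 3, Casp1 from 0.027 without control replicate 2 to 0.25 without control replicate 1, and Ninj1 from 0.50 without Pex5-deficient replicate 1 to 1.06 without Pex5-deficient replicate 2. Il18 ranged from -0.89 without Pex5-deficient replicate 3 to -0.26 without Pex5-deficient replicate 2. Casp4 lay between 0.37 and 0.64 and Pycard between 0.32 and 0.45. The cause of these changes was not tested. Nlrp3 and Il1b rest on 40 to 146 reads per library, which limits what their intervals can show.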

Other observations

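The ratio of reads of Il1rn to those of Il1b, which does not depend on library scaling and was chosen after its values were seen, was 27.7, 27.7 and 35.2 in Pex5-deficient replicates 1 to 3, against 57.0, 47.9 and 51.8 in control replicates 1 to 3. The ratio of Il1rn to Il1a was 6.30 ± 0.970 in Pex5-deficient and 15.0 ± 3.15 in control libraries (SD, n = 3 each). The ratio of Casp1 to Casp4 was 2.82, 2.72 and 3.40 in Pex5-deficient replicates 1 to 3, against 4.18, 4.17 and 3.34 in control replicates 1 to 3, and the groups overlapped by 1 library.

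Of 8 immediate early genes, which handling can raise, 7 were tested and 1 rose by edgeR's quasi-likelihood test, where 1.74% of all genes were called higher. It was Atf3, a stress-induced repressor of inflammatory genes, with 37.5 ± 12.9 CPM in Pex5-deficient and 14.4 ± 2.23 CPM in control libraries (SD, n = 3 each, adjusted p = 0.0203). Fos, Fosb, Jun, Junb, Ier2 and Ier3 were tested and did not pass. The summed level of the list was 272 to 418 CPM in Pex5-deficient and 277 to 328 CPM in control libraries.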
